A study of Homo sapiens with 4 samples.

Results

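The human genome's E2 ubiquitin-conjugating enzymes with a UBE2 symbol were followed between the nucleus and the cytoplasm. The members were every row of the deposited table that the authors typed as protein-coding and whose symbol began with UBE2, leaving out hyphenated symbols, and 35 of 51740 rows met this rule. All 4 libraries came from wildtype HEK293T, a line derived from human embryonic kidney cells, and every culture was formaldehyde crosslinked before nuclei and cytoplasm were separated. There were 2 nuclear and 2 cytoplasmic libraries, from biological replicates numbered Rep1 and Rep2, and no untreated or uncrosslinked culture was among them. Ribosomal RNA was depleted and each gene was counted over its exons and its introns together, so a value included unspliced and partly spliced RNA. The comparison asked in which fraction each transcript had the higher level after the authors' scaling of the libraries, which is not the same as its share of a library. The libraries were bulk, so fewer cells with a transcript and less of it per cell cannot be told apart. Equal masses of RNA (400 ng) went into the libraries of both fractions. A higher level in a fraction therefore does not say which compartment held more copies of a transcript per cell.

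Ubiquitin reaches its targets through a relay of 3 enzyme classes. An E1 enzyme activates ubiquitin, an E2 enzyme carries it as a thioester on a cysteine, and an E3 ligase brings the charged E2 to the substrate. The choice of E2 often sets the type of ubiquitin chain that is built, and some E2s carry other small modifiers such as NEDD8 or ISG15. E2s are used throughout a growing cell, in cell division, DNA repair and the removal of misfolded proteins.

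Active site stretches from 3 subfamilies are shown because close relatives among them, and in UBE2D2 and UBE2D3 genes with the same stretch, lay differently between the fractions. Each runs 5′ to 3′ on the coding strand over 33 bases, from the codon of the histidine in the conserved triplet before the active site to the codon of the cysteine that holds ubiquitin, which is in capitals. They were read from the canonical GENCODE 44 transcripts, on the GRCh38 assembly that is the same as the authors' hg38.
UBE2D1: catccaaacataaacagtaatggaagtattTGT
UBE2D2: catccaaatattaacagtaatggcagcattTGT
UBE2D3: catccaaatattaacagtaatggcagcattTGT
UBE2E1: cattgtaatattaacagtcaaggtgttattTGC
UBE2E2: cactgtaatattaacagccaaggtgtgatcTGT
UBE2E3: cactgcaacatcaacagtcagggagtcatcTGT
UBE2A: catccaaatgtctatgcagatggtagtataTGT
UBE2B: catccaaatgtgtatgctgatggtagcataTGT
UBE2D2 at chr5:139614885-139614917 on the plus strand and UBE2D3 at chr4:102801503-102801535 on the minus strand had the same 33 bases, each within an exon. UBE2D1 differed from both at 4 bases. In the UBE2E subfamily, 5 bases separated UBE2E1 from UBE2E2, 7 separated UBE2E2 from UBE2E3, and 9 separated UBE2E1 from UBE2E3. UBE2A and UBE2B differed at 3 bases. A stretch of this form, a histidine, any residue, an asparagine, 7 further residues and a cysteine, was found in 22 of the 35 coding sequences, and the pattern was not matched in the other 13. Over the whole coding sequence UBE2D2 and UBE2D3 were 86.6% identical, and their longest shared run was 80 bases, shorter than the 100 bases of a read.

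Of the 35 genes, 34 had an adjusted p-value and 31 had a mean above 50 normalized counts, a count divided by its library's size factor. UBE2L5 was the gene without one, with 1 count in each nuclear library and with 2 and 0 counts in the cytoplasmic libraries. At an adjusted p of at most 0.01 in the authors' DESeq2 test, 16 of the 34 were cytoplasmic (higher in that fraction) and 12 were nuclear, against 25.9% and 26.5% of all 23333 tested genes. Among protein-coding genes with a mean above 50, 43.6% were called cytoplasmic and 33.0% nuclear, and the members with such a mean numbered 15 cytoplasmic, 12 nuclear and 4 in neither. The shares of the UBE2 genes were therefore near those of other well-covered protein-coding genes. Their median log2 fold change, cytoplasmic over nuclear, was 0.35, beside -0.12 over all tested genes and 0.11 over tested protein-coding genes.

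The direction of the weaker differences rested on the scaling. The authors' size factors left a larger summed normalized count in the cytoplasmic fraction, and setting the totals of both fractions equal moved every log2 fold change by -0.66. The members' median then became -0.31, and 8 were called cytoplasmic and 15 nuclear, beside 16.2% and 38.3% of all tested genes. The cytoplasmic share of the calls went from 57.1% to 34.8%. All values below are on the authors' scale, and genes whose direction turned with equal totals are named where they appear.

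**Figure D1:**
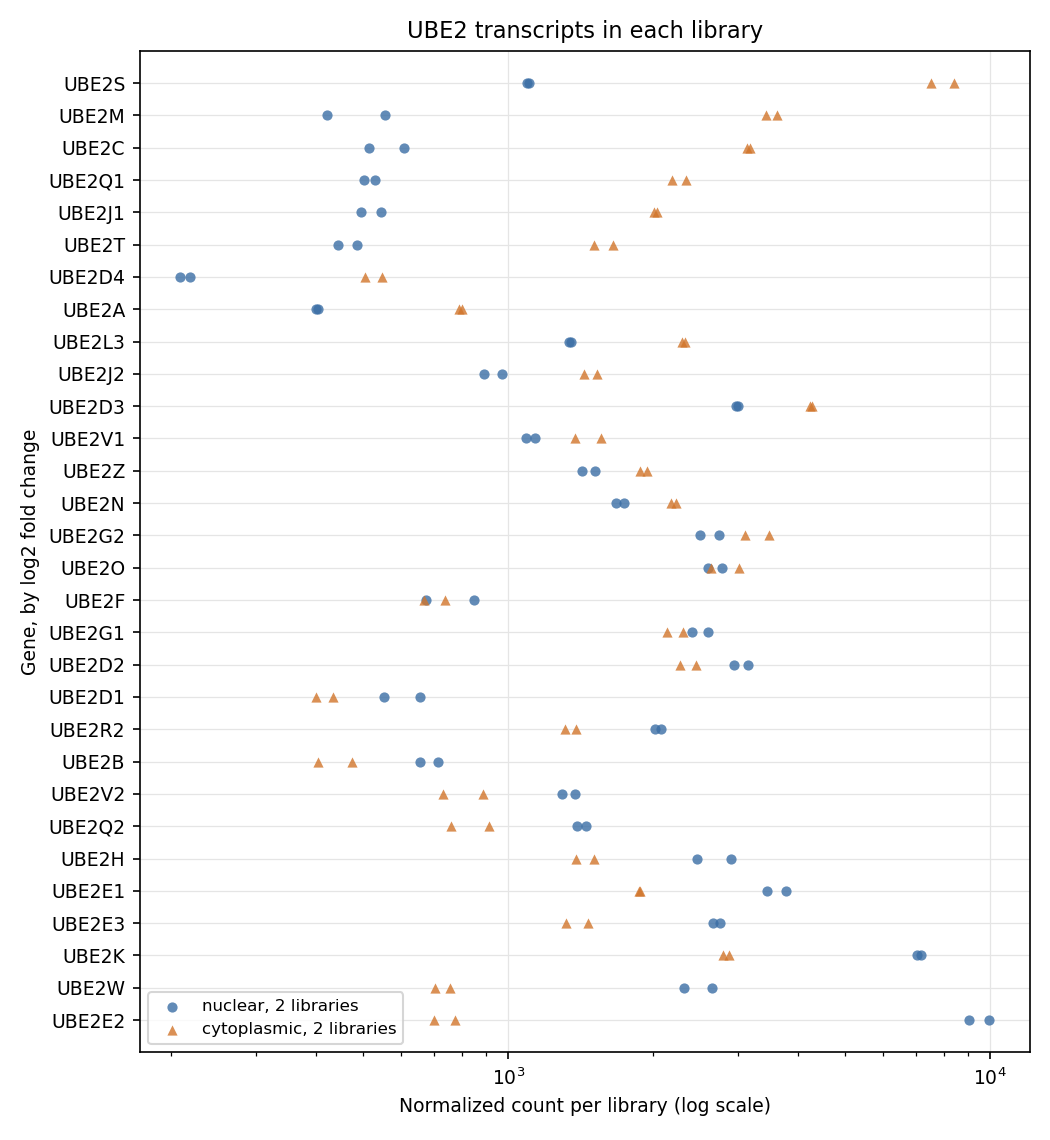
Normalized counts of 30 of the 31 UBE2 genes with a mean above 50, on a log scale, in each of the 2 nuclear (blue circles) and 2 cytoplasmic (orange triangles) libraries, ordered by log2 fold change. Libraries of a fraction lie close together, and the fractions overlap for UBE2O and UBE2F.

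The values of single libraries were recovered as whole counts from the deposited mean, fold change and standard error of each gene. Within the 31 better covered genes the 2 nuclear libraries differed by a median of 1.07-fold and at most 1.32-fold, the latter for UBE2M. The 2 cytoplasmic libraries differed by a median of 1.08-fold and at most 1.21-fold, the latter for UBE2V2. In all 28 called genes both libraries of a fraction lay above both libraries of the other, which a call at this threshold makes likely. The same was so in 4 of the 6 genes not called. Of all tested genes 25.9% were called cytoplasmic and 26.5% nuclear. The share of all genes that lie apart in this way is not known, since single libraries were recovered for the members alone. With single libraries left out, UBE2N, UBE2V1, UBE2Z, UBE2L6, UBE2D1, UBE2D2 and UBE2B lost their calls at least once. Which of the libraries was Rep1 or Rep2 was not known, so values below are given in a fixed order, the library with the larger size factor first.

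Of the 8 E2s that work with a broad range of RING ligases, 6 were called nuclear and 2 cytoplasmic, with a median log2 fold change of -0.74, beside 33.0% nuclear and 43.6% cytoplasmic calls among well-covered protein-coding genes. Of the 6 nuclear genes 4 span 80 kb or more in their canonical transcript, a length at which 76.5% of such genes were called nuclear. With equal totals the group had 6 nuclear and 1 cytoplasmic calls. The UBE2D enzymes start ubiquitin chains with many different ligases. UBE2D4 had 209 and 219 normalized counts in the nuclear libraries and 548 and 505 in the cytoplasmic libraries, a log2 fold change of 1.30 ± 0.19 (SE, 2 libraries a fraction). UBE2D3 had 2997 and 2968 nuclear counts and 4259 and 4233 cytoplasmic counts, and its log2 fold change of 0.51 ± 0.11 became -0.15 with equal totals. UBE2D2 had 3147 and 2945 nuclear counts and 2274 and 2446 cytoplasmic counts, a log2 fold change of -0.37 ± 0.12. UBE2D2 and UBE2D3, with the same active site bases, were thus called in opposite fractions on the authors' scale. With equal totals UBE2D2 was nuclear at -1.03 and UBE2D3 was not called. UBE2D1 was lower in both cytoplasmic libraries (399 and 433) than in the nuclear ones (656 and 552), at -0.54 ± 0.17.

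The UBE2E enzymes carry an extension before the catalytic domain and lack the proline of the active site triplet that UBE2D enzymes have. UBE2E2 was the most nuclear of the 34 genes. Its normalized counts were 9953 and 9019 in the nuclear libraries and 700.0 and 775 in the cytoplasmic libraries. The nuclear level was 12.9-fold the cytoplasmic one, a log2 fold change of -3.69 ± 0.12 with an adjusted p of 1.16e-206 in the authors' DESeq2 test. The gene lies at chr3:23203020-23591794 on the plus strand, and the largest intron of its canonical transcript takes 282 kb of a span of 388 kb. UBE2E1, its neighbour at chr3:23805955-23891640, had 3772 and 3445 nuclear counts and 1880 and 1866 cytoplasmic counts, at -0.95 ± 0.12. UBE2E3 on chromosome 2 had 2659 and 2744 nuclear counts and 1320.3 and 1467 cytoplasmic counts, at -0.96 ± 0.12. All 3 genes were called nuclear on the authors' scale, with equal totals and with centring on the protein-coding median. UBE2W, which joins ubiquitin to the amino terminus of its substrates, went from 2642 and 2312 nuclear counts to 704 and 755 cytoplasmic counts, at -1.76 ± 0.13.

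Counts assigned to the UBE2 genes, not scaled by length, were 0.333% of the nuclear and 0.219% of the cytoplasmic normalized counts. UBE2E2 took 15.7% of those in the nucleus and 1.17% in the cytoplasm. UBE2S took 1.82% in the nucleus and 12.7% in the cytoplasm.

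Of the E2s of DNA damage responses and of Lys63-linked chains, 4 of 6 were called cytoplasmic and 2 nuclear, with a median of 0.38, beside 43.6% and 33.0% of well-covered protein-coding genes. With equal totals UBE2T alone of them was called cytoplasmic, 2 stayed nuclear and the median turned to -0.28. UBE2T, the E2 of the Fanconi anaemia pathway, had 444 and 486 nuclear counts and 1507 and 1647 cytoplasmic counts, a log2 fold change of 1.76 ± 0.14. UBE2A and UBE2B are the pair of human counterparts of yeast RAD6, which mark PCNA and histone H2B with ubiquitin. UBE2A had 399 and 403 nuclear counts against 789 and 802 cytoplasmic counts, at 0.99 ± 0.16, and with equal totals it kept its direction but was not called. UBE2B had 716 and 657 nuclear counts against 402 and 473 cytoplasmic counts, at -0.65 ± 0.17. UBE2A was thus called cytoplasmic and UBE2B nuclear.

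UBE2N builds Lys63-linked chains as a dimer with UBE2V1 or UBE2V2, which lack the catalytic cysteine. UBE2N had 1740 and 1677 nuclear counts and 2175 and 2232 cytoplasmic counts, at 0.37 ± 0.12. UBE2V1 had 1135 and 1087 nuclear counts and 1557 and 1376 cytoplasmic counts, at 0.40 ± 0.13. Both were called cytoplasmic, and both turned with equal totals, to -0.30 and -0.26. UBE2V2 had 1294 and 1376 nuclear counts and 886 and 732 cytoplasmic counts, at -0.72 ± 0.15, and was called nuclear. Windows of 100 bases that also occur in a transcript of another gene covered 97.9% of the canonical UBE2V1 transcript, all of them in the readthrough transcript PEDS1-UBE2V1, which has no row in the table.

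Of the 4 E2s that serve the cell cycle ligases, 2 were called cytoplasmic, 1 nuclear and 1 in neither, with a median of 1.16, beside the same 43.6% and 33.0%. With equal totals 2 were cytoplasmic and 2 nuclear. UBE2C and UBE2S span under 30 kb, a length at which 69.1% of well-covered protein-coding genes were called cytoplasmic and 10.9% nuclear. UBE2C starts and UBE2S extends the chains that the anaphase-promoting complex (APC/C) builds on its substrates. UBE2S had 1107 and 1093 nuclear counts and 7540.5 and 8394 cytoplasmic counts. It was the most cytoplasmic of the UBE2 genes, at 7.24-fold and a log2 fold change of 2.86 ± 0.11 (adjusted p of 1.74e-138 in the authors' DESeq2 test). UBE2C had 515 and 607 nuclear counts and 3166 and 3130.1 cytoplasmic counts, at 2.49 ± 0.13. UBE2R2, a partner of cullin ligases, had 2078 and 2014 nuclear counts and 1379 and 1311 cytoplasmic counts, at -0.61 ± 0.12. UBE2G1, which extends chains with cullin ligases, was not called at -0.17 ± 0.12, with 2598 and 2407 nuclear and 2137 and 2309 cytoplasmic counts, and with equal totals it was called nuclear at -0.83. UBE2S shared 10.0% of its 100-base windows with other genes, most of them with the processed pseudogene UBE2SP1, whose mean was 10.7 normalized counts.

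Of the 3 E2s of endoplasmic reticulum-associated degradation, which removes misfolded proteins, 2 were called cytoplasmic and none nuclear, with a median of 0.67. This stands beside 43.6% cytoplasmic and 33.0% nuclear calls among well-covered protein-coding genes. UBE2J1 and UBE2J2 span under 30 kb, a length at which 69.1% of such genes were called cytoplasmic and 10.9% nuclear. With equal totals 1 of the 3 was called cytoplasmic. UBE2J1 and UBE2J2 are anchored in the endoplasmic reticulum membrane. UBE2J1 had 494 and 545 nuclear counts and 2004 and 2039 cytoplasmic counts, at 1.96 ± 0.13. UBE2J2 had 972 and 891 nuclear counts and 1435 and 1531 cytoplasmic counts, at 0.67 ± 0.13, and with equal totals its value of 0.01 was not called. UBE2G2, a soluble E2, lay just past the threshold at 0.33 ± 0.12, with an adjusted p of 0.0113 in the authors' DESeq2 test, and turned to -0.33 with equal totals. Its cytoplasmic libraries (3482 and 3096) were above its nuclear ones (2737 and 2497).

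Of the 5 E2s of ubiquitin-like proteins, 4 were called cytoplasmic and none nuclear, beside 43.6% and 33.0% of well-covered protein-coding genes. UBE2M, UBE2L6 and UBE2Z span under 30 kb in their canonical transcripts. At that length 69.1% of well-covered protein-coding genes were called cytoplasmic and 10.9% nuclear. Their median of 2.11 is the value of the rare UBE2L6. With equal totals 2 were cytoplasmic, 1 nuclear and 2 in neither, as UBE2L6 and UBE2Z lost their calls. UBE2M and UBE2F both carry NEDD8, the activator of cullins. UBE2M had 421 and 556 nuclear counts and 3431 and 3607 cytoplasmic counts, at 2.85 ± 0.14. UBE2F was not called at -0.11 ± 0.16, with 848 and 674 nuclear and 667 and 741 cytoplasmic counts that overlapped, and with equal totals it was called nuclear at -0.78. Of the UBE2F transcript's 100-base windows, 22.4% also occur in the readthrough UBE2F-SCLY, which has no row in the table.

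UBE2L6, the E2 of the interferon-induced modifier ISG15, was rare, with 12 and 12 counts in the nuclear libraries and 34 and 32 in the cytoplasmic libraries. Its log2 fold change was 2.11 ± 0.63, with an adjusted p of 0.0018 in the authors' DESeq2 test that became 0.037 with equal totals. UBE2Z, which receives ubiquitin and FAT10 from the E1 UBA6, had 1423 and 1515 nuclear counts and 1944 and 1875 cytoplasmic counts, and its 0.38 ± 0.12 turned to -0.28 with equal totals.

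Of the 8 other tested ubiquitin E2s, 2 were called cytoplasmic, 3 nuclear and 3 in neither, with a median of -0.22. Well-covered protein-coding genes were called cytoplasmic in 43.6% and nuclear in 33.0%. With equal totals 1 of the 8 was cytoplasmic and 4 nuclear. UBE2Q1 had 503 and 528 nuclear counts and 2334 and 2189 cytoplasmic counts, at 2.13 ± 0.13. UBE2L3, which works with RBR and HECT ligases, had 1351 and 1336 nuclear counts and 2291 and 2328 cytoplasmic counts, at 0.78 ± 0.12, and with equal totals its 0.12 was not called. The 3 nuclear genes stayed nuclear with equal totals. UBE2K, which builds Lys48-linked chains, had 7168 and 7038 nuclear counts and 2874 and 2791 cytoplasmic counts, at -1.33 ± 0.11. UBE2H had 2894 and 2462 nuclear counts and 1381 and 1504 cytoplasmic counts, at -0.89 ± 0.13. UBE2Q2 had 1452 and 1392 nuclear counts and 761 and 913 cytoplasmic counts, at -0.77 ± 0.14. UBE2O, an enzyme that joins E2 and E3 activities, was not called, with overlapping nuclear (2773 and 2597) and cytoplasmic (2631 and 3008) counts and a log2 fold change of 0.07 ± 0.12. With equal totals UBE2O turned to -0.59 and was called nuclear.

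The remaining genes had few counts, and neither was called. UBE2QL1 had 37 and 42 counts in the nuclear libraries and 23 and 13 in the cytoplasmic libraries, at -0.50 ± 0.61. UBE2U had 0 and 4 nuclear counts and 4 and 4 cytoplasmic counts, at 1.59 ± 1.79.

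**Figure D2:**
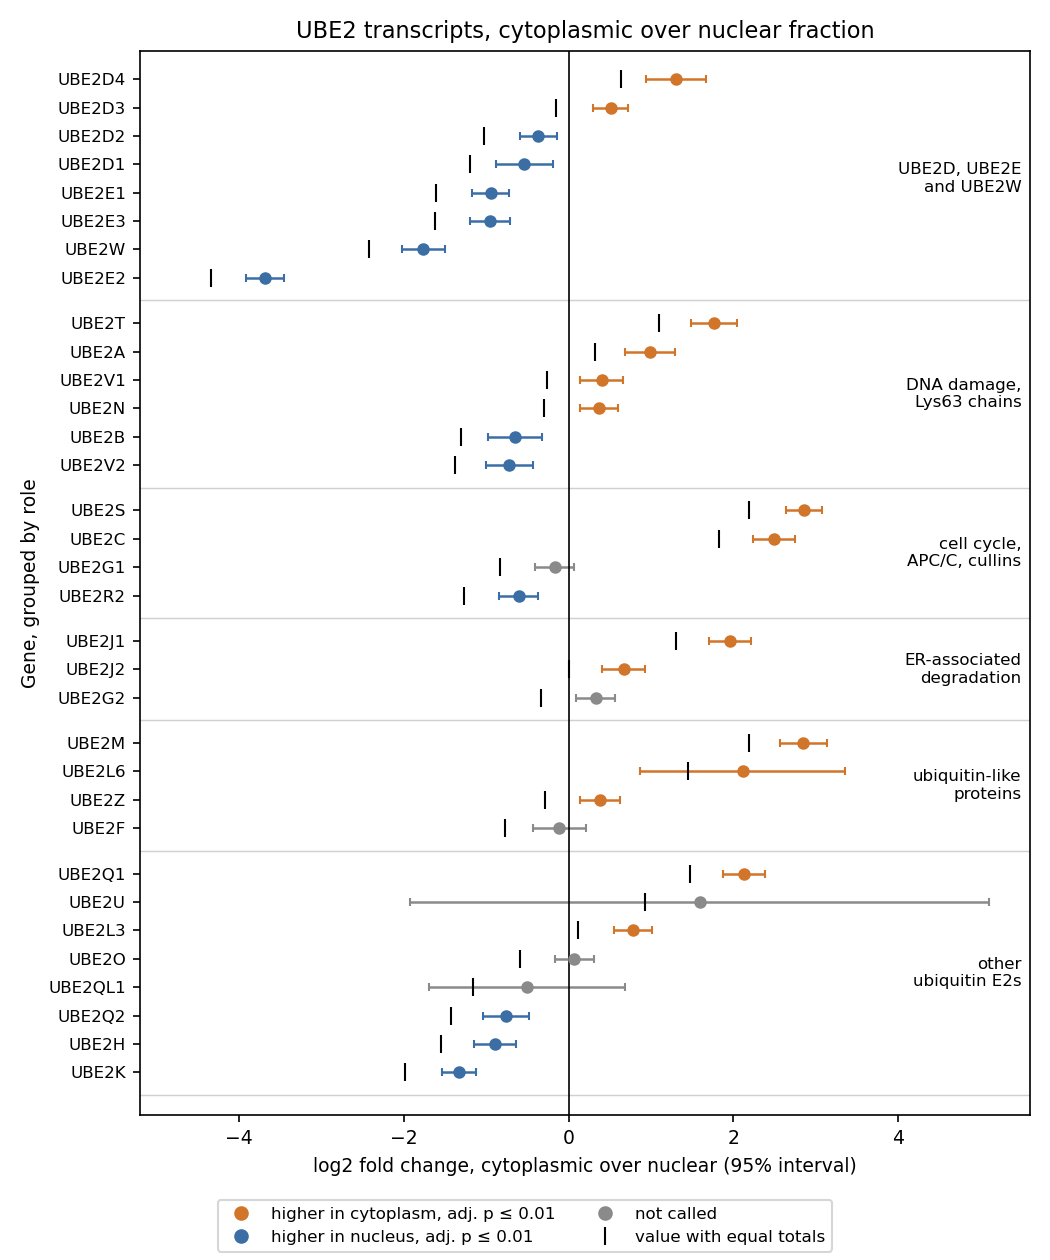
Log2 fold change, cytoplasmic over nuclear, of 33 of the 34 tested UBE2 genes with 95% intervals (2 libraries a fraction), grouped by role and coloured by call, with a black tick at the value after equal totals. UBE2M, UBE2C and UBE2S lie far right on both scales, UBE2E2 far left on both, and UBE2D3, UBE2V1, UBE2N, UBE2G2, UBE2Z and UBE2O change side at the tick.

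Close relatives often differed. Setting the totals equal shifts every log2 fold change alike, so by its making a difference between 2 genes stays the same. The difference between UBE2D3 and UBE2D2 was 0.88 on the log2 scale (95% interval 0.57 to 1.19, from the 2 standard errors taken as independent), although their active site bases were the same. UBE2A exceeded UBE2B by 1.64 (1.19 to 2.09), with 80.5% of their coding bases identical. UBE2V1 exceeded UBE2V2 by 1.12 (0.74 to 1.51), and UBE2J1 exceeded UBE2J2 by 1.29 (0.92 to 1.66). The widest gaps were those of the NEDD8 enzymes, 2.96 (2.54 to 3.39) for UBE2M over UBE2F, and of UBE2Q1 over UBE2Q2, 2.90 (2.52 to 3.28). UBE2E1 and UBE2E3 each exceeded UBE2E2, by 2.74 (2.41 to 3.07) and 2.73 (2.40 to 3.06). In these pairs the lower gene had the longer canonical transcript span, except that UBE2J1 spans 26.1 kb and UBE2J2 19.9 kb. Spans were 2.90 and 75.8 kb for UBE2M and UBE2F, and 10.1 and 57.6 kb for UBE2Q1 and UBE2Q2. UBE2E1 spans 85.7 kb and UBE2E2 388 kb. The part of span in these differences was not tested.

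Other pairs were not told apart. UBE2E1 and UBE2E3 differed by 0.01 (-0.32 to 0.34), UBE2N and UBE2V1 by -0.03 (-0.38 to 0.31), and UBE2D2 and UBE2D1 by 0.17 (-0.24 to 0.58). UBE2D4 exceeded UBE2D3 by 0.79 (0.37 to 1.21) and UBE2D3 exceeded UBE2D1 by 1.05 (0.65 to 1.45), so the 4 UBE2D genes lay in the order UBE2D4, UBE2D3, and then UBE2D2 and UBE2D1 without a difference beyond their errors. UBE2N exceeded UBE2V2, its other partner, by 1.09 (0.72 to 1.45). UBE2G2 exceeded UBE2G1 by 0.50 (0.17 to 0.83), UBE2S exceeded UBE2C by 0.37 (0.03 to 0.71), and UBE2L6 exceeded UBE2L3 by 1.33 (0.07 to 2.60). These were 17 pairs, and the intervals were not adjusted for their number.

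**Figure D3:**
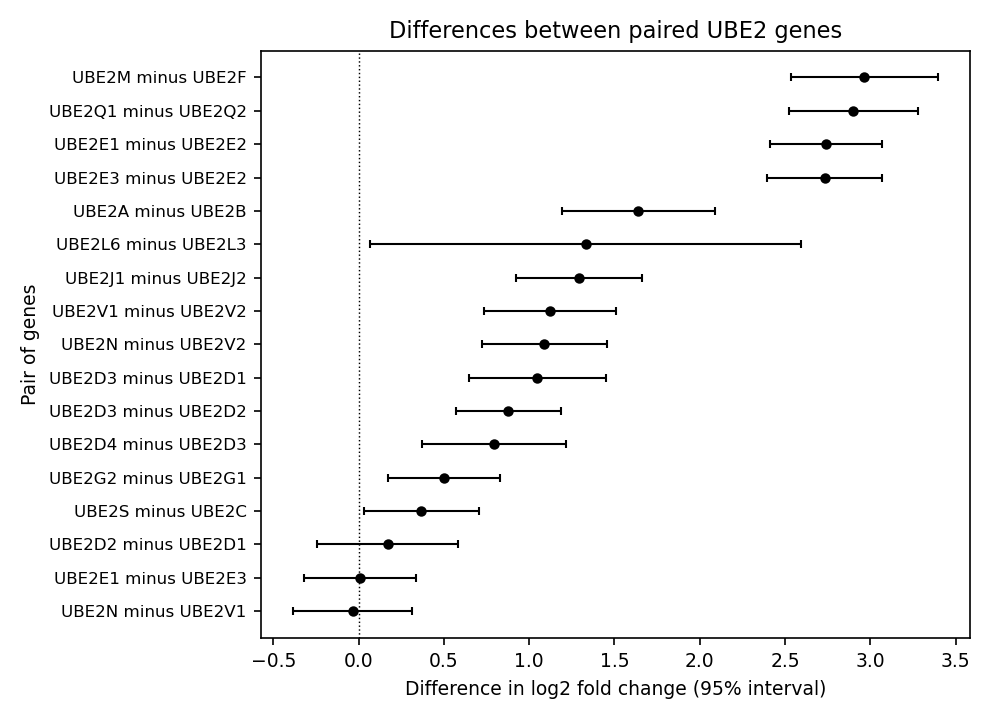
Differences in log2 fold change between 17 pairs of related or partner UBE2 genes, the first named gene minus the second, with 95% intervals. UBE2M minus UBE2F and UBE2Q1 minus UBE2Q2 lie near 3, and UBE2D2 minus UBE2D1, UBE2E1 minus UBE2E3 and UBE2N minus UBE2V1 have intervals that include 0.

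The fraction of a UBE2 transcript went with the length of its gene. The span is the distance from the start to the end of the canonical transcript, introns included. Of the 12 genes under 30 kb, 11 were called cytoplasmic and UBE2B nuclear, with a median log2 fold change of 1.86. Of protein-coding genes of that length with a mean above 50, 69.1% were called cytoplasmic and 10.9% nuclear. The 11 genes from 30 kb to under 80 kb numbered 4 cytoplasmic, 4 nuclear and 3 in neither, with a median of 0.07, beside 32.0% and 33.9% of protein-coding genes. Of the 8 genes of 80 kb or more, 7 were called nuclear and none cytoplasmic, with UBE2G1 in neither and a median of -0.95, beside 76.5% and 5.48% of protein-coding genes. With equal totals the median of the middle class lay below 0, since every value moved by -0.66.

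Across the 31 genes Spearman's rho of log2 fold change with the span of the gene was -0.75, and with the span of the canonical transcript -0.86, beside -0.71 over 12134 protein-coding genes. It was -0.84 without UBE2E2 and -0.33 with the spliced length. All of these points share the same 4 libraries. UBE2A is 116 kb long as a gene in GENCODE 44 and 9.86 kb as its canonical transcript, so the first 2 values place it differently. Reads in introns were counted, and their part in the relation was not tested.

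Against protein-coding genes of the same decile by span, 18 of the 31 lay within the middle 50% of log2 fold changes, 7 above it and 6 below it. UBE2J1, with a span of 26.1 kb, lay above 96.0% of the genes in its decile, whose median was 0.45. UBE2S at 8.04 kb lay above 93.2% of its decile. UBE2Q1, UBE2D4, UBE2L3 and UBE2G1 were among the others above. UBE2E2 lay above only 8.73% of the genes in the longest decile, whose median was -2.01, and UBE2W lay above 10.9% and UBE2B above 12.8% of theirs. UBE2K, UBE2D1 and UBE2Q2 were the others below. UBE2B at 20.5 kb and UBE2J2 at 19.9 kb had spans in the same decile, with log2 fold changes of -0.65 and 0.67.

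**Figure D4:**
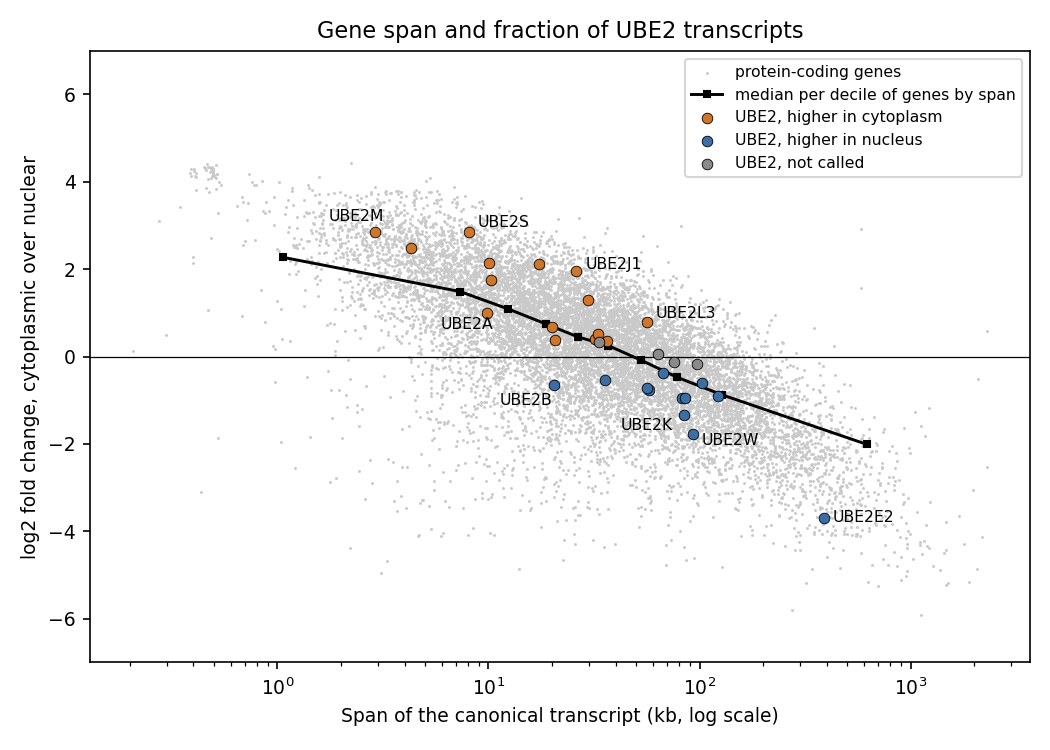
Log2 fold change, cytoplasmic over nuclear, against the span of the canonical transcript in kb on a log scale, for 12134 protein-coding genes (grey points), their median in each decile by span (black squares) and the 31 UBE2 genes (coloured by call). The UBE2 genes descend from UBE2M at 2.90 kb to UBE2E2 at 388 kb, along the slope of the grey points.

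Other genes of the pathway were described for comparison. Highest and lowest here mean among the genes of a list with a mean above 50. Counts of calls stand against protein-coding genes with a mean above 50, of which 43.6% were called cytoplasmic and 33.0% nuclear. The median of those genes was 0.22. Over all tested genes the shares were 25.9% and 26.5%, and the median was -0.12. With equal totals the shares of all tested genes were 16.2% and 38.3%. The lists were not matched to other genes by span. The genes of ubiquitin and its relatives were nearly all cytoplasmic, 12 of 13, with 1 nuclear (10 and 1 with equal totals). Their median was 2.54. ISG15, an interferon-induced modifier, was the lowest at -1.96 ± 0.16. ISG15 was nuclear while its E2, UBE2L6, was called cytoplasmic at a low level. The call of UBE2L6 was lost with equal totals and with some single libraries left out.

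The 6 E2s with another symbol numbered 3 cytoplasmic and 2 nuclear (2 and 2 with equal totals), with a median of 0.46. They ran from UFC1, the UFM1 E2, at 3.18 ± 0.15 to the autophagy E2 ATG10 at -2.55 ± 0.13. Of 10 E1 and E1-like enzymes, 4 were cytoplasmic and 3 nuclear (3 and 6 with equal totals), with a median of 0.04. Among those with a mean above 50 the values ran from MOCS3 at 2.25 ± 0.20 to ATG7 at -1.82 ± 0.13. Of 10 genes of the cullin-RING scaffold, 3 were cytoplasmic and 4 nuclear (1 and 7 with equal totals). Their median of -0.05 lay at -0.71 with equal totals. RNF7, a RING subunit, was the highest at 2.45 ± 0.14 and CUL3 the lowest at -1.11 ± 0.12.

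Of 16 APC/C genes, the ligase that UBE2C and UBE2S serve, 6 were cytoplasmic and 5 nuclear (5 and 9 with equal totals). Their median of 0.30 turned to -0.36 with equal totals. ANAPC15 was the highest at 2.88 ± 0.22 and ANAPC10 the lowest at -2.49 ± 0.15. Of 13 RBR ligases, which pass ubiquitin over a cysteine of their own, 4 were cytoplasmic and 6 nuclear (1 and 8 with equal totals). Their median was -0.27, and CUL9 was counted both here and in the cullin-RING scaffold. RNF19B was the highest at 1.46 ± 0.17. Of 28 HECT ligases, 3 were cytoplasmic and 17 nuclear (1 and 24 with equal totals), with a median of -0.55. They ran from HECTD3 at 1.25 ± 0.15 to HECW2 at -2.91 ± 0.14.

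**Figure D5:**
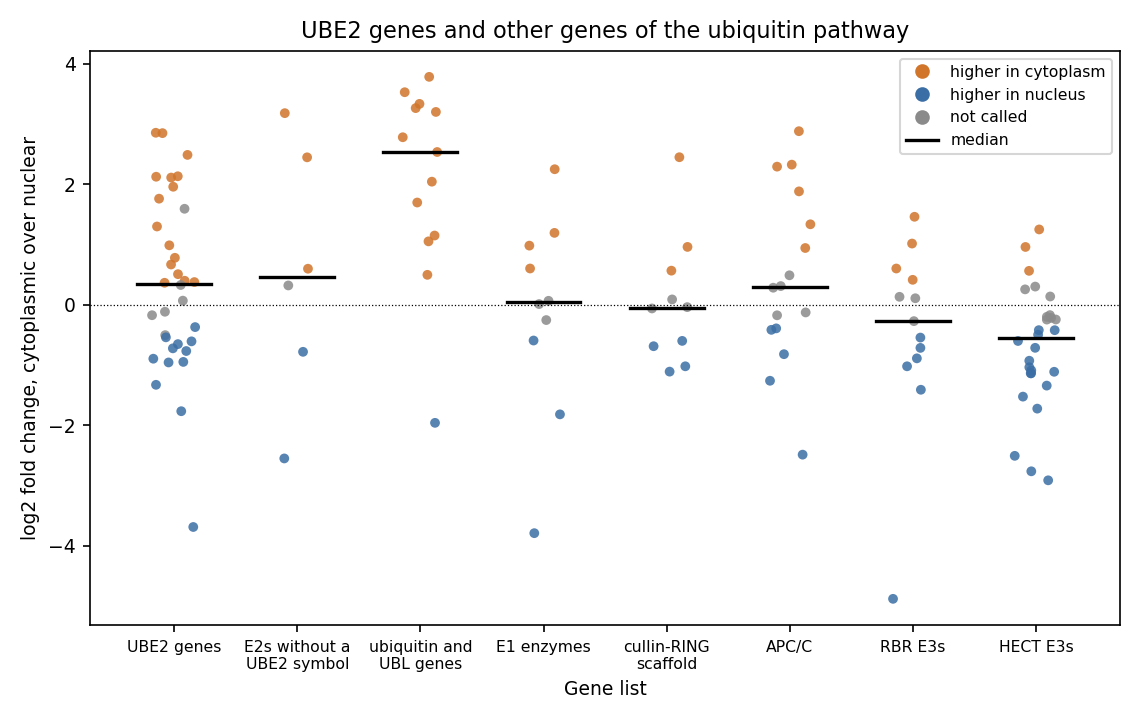
Log2 fold change, cytoplasmic over nuclear, of the tested UBE2 genes and of 7 other gene lists of the ubiquitin pathway, 1 point a gene, coloured by call, with a black line at each median. The ubiquitin and ubiquitin-like genes have the highest median (2.54) and the HECT ligases the lowest (-0.55), and with equal totals every point would lie 0.66 lower, which turns the medians of the UBE2 genes, the APC/C, the E2s with another symbol and the E1 enzymes.

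The fractions were checked on genes of known place. The nuclear RNAs MALAT1 and NEAT1 had log2 fold changes of -3.47 and -3.09, and the mRNAs of GAPDH and EEF1A1 had 3.78 and 4.09. The neurofilament genes NEFL and NEFM, known from HEK293 cells, had means of 13195 and 16264 normalized counts, and PAX2 and LHX1 of 63.1 and 245. Markers of leukocytes, T cells, liver, red cells and fibroblasts (PTPRC, CD3E, ALB, HBB and COL1A2) had means of at most 1.76. The size factors were 1.34 and 1.19 for the nuclear and 0.853 and 0.755 for the cytoplasmic libraries, and counts of the 31 better covered UBE2 genes ranged from 260 to 13346 in a library, with standard errors from 0.105 to 0.187.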

How the data were processed

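The members and gene lists were chosen with earlier results of these data known. The authors aligned paired-end reads to hg38 with STAR, counted exons and introns with featureCounts 2.0.2 on an annotation without readthrough transcripts or stretches shared by overlapping genes, and compared the fractions with DESeq2. The library kit was stranded, and the strand setting of the counting is not given in the sources used here. The deposited table gives each gene's mean normalized count (a signal), log2 fold change with its standard error, Wald score (the statistic), p-value and adjusted p-value. These columns are the authors' own comparison and were used as the test here because the table holds no column per library. Levels and calls rest on them, at an adjusted p of at most 0.01.

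Normalized counts move in steps worth 1 count in 1 library, and 2212 low means gave the size factors. For each member, whole counts that gave the deposited mean were listed, up to 7346 sets. At a mean above 50 only sets with a fold change near the deposited one and with like values within a fraction were listed. Replicates further apart than this limit could therefore not be found. The set that gave the deposited fold change, at the dispersion that gave the deposited standard error, was kept. In each of the 35 genes exactly 1 of the listed sets did so, within 5e-08 on the log2 scale (5e-07 at a mean of at most 50). Of 34 genes tested on simulated data, 34 were recovered.

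Every member with an adjusted p-value was named, by role, and in each related list the highest and lowest gene with a mean above 50, except that some items are not reported here (they stay in the counts and medians). Alternatives were equal totals, centring on the protein-coding median, Bonferroni adjustment, other thresholds, other length measures and, chosen after seeing the data, canonical transcript lengths, each library left out and a block for pairs of libraries. Gene spans came from GENCODE 44, which held all 35 gene identifiers and is later than the authors' annotation. The analysis used Python 3.11.15, numpy 2.4.6, scipy 1.17.1 and pandas 2.3.3.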

Additional observations from a re-analysis of the deposited data

How the results depend on the processing

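With equal totals 8 members were called cytoplasmic, the median became -0.31, and the log2 fold changes of UBE2D3, UBE2V1, UBE2Z, UBE2N, UBE2G2 and UBE2O turned, to -0.15, -0.26, -0.28, -0.30, -0.33 and -0.59. Centring on the protein-coding median turned UBE2O alone, to -0.041, and ended the calls of UBE2V1, UBE2Z and UBE2N (13 cytoplasmic, 12 nuclear). Requiring an absolute log2 fold change over 0.5 and a mean over 50 ended those 3 and the calls of UBE2L6 and UBE2D2 (12 and 11). An adjusted p of at most 0.05 added UBE2G2. Bonferroni adjustment left 10 cytoplasmic and 7 nuclear calls. Leaving out each library in turn gave medians of 0.27 to 0.38, with a lone library assumed to vary like the others. UBE2U, with 0 counts in the first nuclear library, had no value without the second. Calls in these fits and in the block fits below used a fixed unadjusted cut, the largest p called in the authors' DESeq2 test (0.00524). With a library left out, UBE2F ranged from -0.27 to 0.061, turning without the first nuclear library. UBE2O ranged from -0.029 to 0.16, turning without the second cytoplasmic library. UBE2N lost its call without any of the 4 libraries in turn, and UBE2V1, UBE2Z, UBE2L6 and UBE2D1 each without 3 of them. UBE2D2 lost its call without either first library, and UBE2B without the first cytoplasmic library, while UBE2G2 gained one without the second cytoplasmic library. Rank correlations with length were -0.13 with exonic length, -0.86 with the canonical transcript span and -0.33 with its spliced length. The causes of these changes were not tested. Which recovered libraries share a replicate number is unknown, so both possible pairings were fitted with a replicate block, the dispersion of each gene kept. Each gave 16 cytoplasmic and 12 nuclear calls and a median of 0.35, with no member's call changed. With dispersions kept and fractions balanced within pairs, fold changes and standard errors could hardly move. These fits therefore cannot show whether the pairing matters. Other normalizations and a filter on low counts were not run, since they need the counts of all genes.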

Other observations

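The table held 51 further rows with a UBE2 symbol, 46 of them pseudogenes, of which 32 had a mean of 0. Of the 10 pseudogenes with an adjusted p-value, 5 were called nuclear and none cytoplasmic, beside 26.5% and 25.9% of all tested genes. All 5 were unprocessed copies of UBE2Q2. UBE2Q2P2 had a log2 fold change of -4.26 ± 0.14 (about 4197 nuclear against 219 cytoplasmic normalized counts) and UBE2Q2P1 of -3.73 ± 0.17, beside -0.77 ± 0.14 for UBE2Q2 itself. Among antisense genes, UBE2R2-AS1 was called nuclear at -2.16 ± 0.61, beside -0.61 for UBE2R2. UBE2D3-AS1 was not called at -0.69 ± 0.37. UBE2E1-AS1, the other of the 3 tested, lay the other way at 2.07 ± 0.85 and was not called, beside -0.95 for UBE2E1. The kit kept strand and the authors took overlapping stretches of genes out of the annotation, while the strand setting of the counting is not given in the sources used here.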
